A study of Mus musculus with 8 samples.

Results

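The nuclear genes of the mitochondrial respiratory chain were taken from a gene-level table of 54141 mouse genes by symbol: those beginning with Nduf, Uqcr, Cox4, Cox5, Cox6, Cox7 or Atp5, together with Sdha, Sdhb, Sdhc and Sdhd. The prefixes matched 104 genes, of which 0 failed the authors' quantification. As pseudogenes, by annotated type or by a symbol ending in -ps, 13 were set aside, which left 91 members. By complex there were 44 members for complex I, 4 for complex II, 8 for complex III, 17 for complex IV and 18 for complex V. The choice used names and quantification status and no expression difference. RNA came from epithelial cells released with EDTA from the distal colon of c57bl6/j mice, either wild type (WT, 4 libraries) or Degs2 homozygous mutant (Degs2_KO, 4 libraries). The product of Degs2 is an enzyme of ceramide synthesis that can hydroxylate the sphingoid base to give phytoceramide. The sources used here do not give the age or sex of the mice, the part of Degs2 that was mutated, or whether libraries and mice correspond one to one. The p-values therefore rest on the scatter among these libraries, which may be technical in part.

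Levels are given as CPM, the counts of a gene per 1000000 fragments counted in the tested genes of its library, with TMM scaling between libraries. Depth lay between 32.83 and 49.82 M fragments per library before the authors' scaling. Degs2 itself read 151, 110, 106 and 120 CPM in the WT libraries and 53.3, 47.8, 65.6 and 65.9 CPM in the Degs2_KO libraries, with a log2 fold change of -1.07 ± 0.15 (SE). WT replicate 1 and Degs2_KO replicate 3 stood apart from the other 6 libraries. On the first principal component of all tested genes, which held 50.3% of the variance, they lay at -53.9 and -59.1 and the others between -1.1 and 43. The summed level of 6 distal colon Hox genes was 143 and 140 CPM in these 2 libraries, against 367 to 493 CPM in the others. The defining epithelial markers (11 of 11 tested, 21000 to 45000 CPM summed in WT and 22200 to 35200 CPM in Degs2_KO) far exceeded those of T cells (8.88 to 36.2 and 13.0 to 29.3 CPM), fibroblasts (4.08 to 30.8 and 1.29 to 15.9 CPM) and myeloid cells (4.76 to 8.25 and 4.8 to 5.55 CPM). The 2 libraries that stood apart differed in the epithelial marker Muc2. It was highest in WT replicate 1 (24560 CPM) and lowest in Degs2_KO replicate 3 (522 CPM), against 5907 to 20370 CPM in the others. In bulk RNA, fewer cells of a type and less RNA per cell cannot be told apart.

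The respiratory chain sits in the inner mitochondrial membrane. Complex I oxidizes NADH and complex II oxidizes succinate, both passing electrons to ubiquinone. Complex III hands them on to cytochrome c, complex IV transfers them to oxygen, and complex V (ATP synthase) uses the proton gradient that complexes I, III and IV build to make ATP. Most subunits are encoded in the nucleus and imported, and a small set is encoded by mitochondrial DNA, so the complexes need transcripts of both genomes. Colonocytes are known for oxidizing bacterial butyrate in their mitochondria, which makes this machinery central to their metabolism.

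The members were scattered over 19 chromosomes, with at most 8 on one chromosome and 3 on X. RefSeq promoters (GRCm38.p6, from 250 bases before to 50 bases after the start site) could be matched by symbol or synonym for 74 of the 91. Nuclear respiratory factor 1 (NRF1) is a transcription factor known to act on many respiratory chain genes. The 74 members had 79 promoters, and a member counted if any of its promoters held the letters. The core of the NRF1 site, GCGCATGC on either strand, was found for 12 of these 74 members (16.2%). It was found for 3.05% of all 27025 genes with a promoter and for 5.55% of 11299 tested genes with a promoter. The 12 were Atp5g2, Atp5k, Atp5l, Cox6a1, Ndufa11, Ndufa6, Ndufa8, Ndufaf4, Ndufaf5, Sdhb, Uqcr11 and Uqcrc1. The 5 stretches printed here belong to members whose values are given in every library below. Each is written 5′ to 3′ on the gene's own strand, ends before the start site, and carries the core or its reverse complement in capitals, with both merged where they overlap.
Ndufaf4, chr4:24897944-24898003, plus strand: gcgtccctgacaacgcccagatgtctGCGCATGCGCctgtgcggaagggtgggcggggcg
Cox6a1, chr5:115349087-115349146, minus strand: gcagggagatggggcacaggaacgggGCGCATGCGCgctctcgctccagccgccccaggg
Atp5g2, chr15:102671056-102671115, minus strand: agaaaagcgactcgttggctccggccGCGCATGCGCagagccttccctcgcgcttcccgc
Ndufa6, chr15:82354341-82354400, minus strand: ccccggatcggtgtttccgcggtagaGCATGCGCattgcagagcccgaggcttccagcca
Sdhb, chr4:140961191-140961250, plus strand: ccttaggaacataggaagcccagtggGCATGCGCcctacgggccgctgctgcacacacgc

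In these 5 windows the capitals form a palindrome of 10 bases for Ndufaf4, Cox6a1 and Atp5g2, where the motif and its reverse complement overlap, and a single 8-base match for Ndufa6 and Sdhb. The core of the YY1 site, AAGATGGC on either strand, was found for 11 of the 74 members (14.9%), against 4.99% of tested genes with a promoter. The core of the ETS site that GABPA binds, CCGGAAGT, was found for 4 members (5.41%), against 8.58%, and the TATA box TATAAA for 6 (8.11%), against 9.37%, both on either strand. The median GC content was 58.7% for the members and 60% for the tested genes. A match describes the letters of the window only.

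Transcript levels were compared between genes as CPM per kb of annotated exon. In complex V, the alpha subunit of the catalytic F1 head, Atp5a1, was highest on this scale, at 487 ± 33.3 CPM per kb in WT and 499.5 ± 40.3 in Degs2_KO (SD, n = 4 each). Atp5b, the catalytic beta subunit, read 392.1 ± 27.0 and 400.3 ± 26.3 CPM per kb. Their order depends on the length used: per kb of the longest annotated transcript, Atp5b was first at 876.1 and Atp5a1 second at 578.2, as means over all 8 libraries. Both stood well above Atp5c1, the gamma subunit of the rotating shaft, at 194 ± 5.42 and 199 ± 13.5 CPM per kb. The head is built from several alpha and beta copies and a single gamma copy. The epsilon subunit Atp5e was the least abundant F1 member, at 34.9 ± 4.06 and 36.6 ± 2.05 CPM per kb.

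In complex IV the leading members were Cox6a1, a regulatory subunit, at 501 ± 46.0 CPM per kb in WT and 480.1 ± 22.4 in Degs2_KO, then Cox6b1, which joins the monomers of the complex IV dimer, at 342 ± 24.2 and 354 ± 29.5, and Cox4i1, a subunit through which ATP regulates the enzyme, at 262 ± 28.2 and 267 ± 34.4. The SDs of Cox6a1 and Atp5a1 overlapped in both groups, so the order of these 2 genes is not fixed by the data. The median over the 10 ubiquitous subunits of complex IV was 192 CPM per kb, and Ndufa4, once assigned to complex I and now known as a complex IV subunit, was the lowest of them at 48.0. Complex III ranged from 60.4 CPM per kb for Uqcrq, a small membrane subunit, to 226 for Uqcrb, a subunit beside the quinone-binding region, with the Rieske iron-sulfur protein Uqcrfs1 at 168.

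The 4 subunits of complex II spanned 56.0 to 182 CPM per kb. The membrane anchors sat at both ends, Sdhd at 177 ± 7.63 in WT and 187 ± 12.7 in Degs2_KO and Sdhc at 55.01 ± 3.19 and 57.0 ± 1.80. The flavoprotein Sdha, which oxidizes succinate, read 119 ± 5.85 and 117 ± 8.54 CPM per kb. The iron-sulfur subunit Sdhb read 83.8 ± 7.60 and 83.2 ± 9.33.

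Complex I was the lowest complex per gene, with a median of 44.8 CPM per kb over its 44 members. Ndufa1, a small membrane-arm subunit encoded on X, read 189 ± 13.7 in WT and 191 ± 12.3 in Degs2_KO, and the accessory subunit Ndufb9 read 151 ± 11.1 and 151 ± 9.92. These 2 genes also changed places by the longest transcript, with 190 for Ndufa1 and 221 for Ndufb9 over all 8 libraries. The 8 assembly factors, which build complex I and are not part of the finished enzyme, ranged from 3.30 (Ndufaf6) to 10.4 CPM per kb, with a median of 6.08. The median was 52.7 for the 29 accessory subunits, 52.7 for the 3 core subunits of the NADH-oxidizing module and 39.0 for the 4 of the quinone module. Division by the longest annotated transcript in place of all exons kept 13 of the 15 genes that ranked among the 3 highest of their complex, but not their order: in complex IV, Cox4i1 (536) passed Cox6b1 (398) behind Cox6a1 (556), while the order of the 4 complex II subunits was the same.

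**Figure D1:**
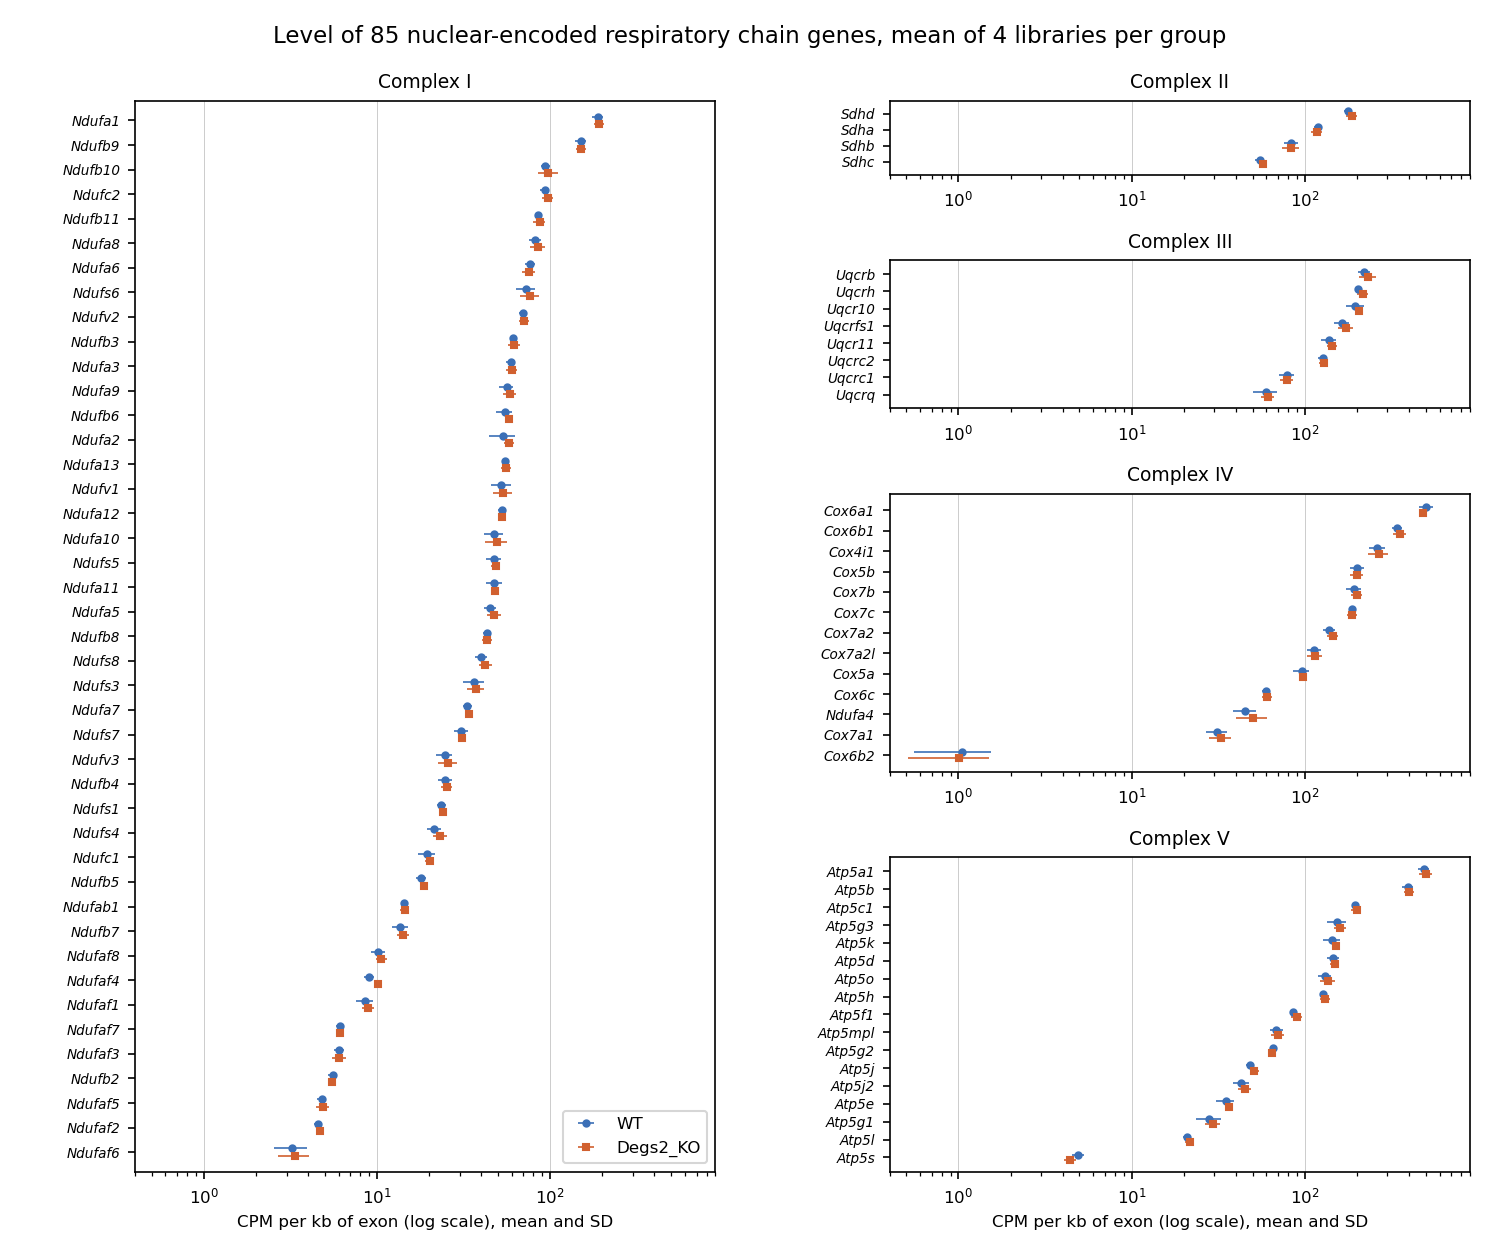
Level of 85 of the 86 tested members in CPM per kb of annotated exon (log axis), by complex, with circles for the mean of 4 WT libraries, squares for the mean of 4 Degs2_KO libraries and bars for the SD. The complex I assembly factors occupy the bottom of their panel, at 3.30 to 10.4 CPM per kb, and Atp5a1 and Cox6a1 reach 493 and 491 over all 8 libraries.

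Several subunits have alternative genes, and the colon epithelium used one of each pair almost alone for most of them. Cox4i2, an isoform known for its response to low oxygen, made up 0.00881% of the Cox4 transcripts per kb in WT and 0.00873% in Degs2_KO, with at most 1.74 scaled counts in any library. The muscle and heart isoform Cox6a2 held 0.0173% and 0.0136% of the Cox6a transcripts, and the testis isoform Cox6b2 held 0.301 ± 0.13% and 0.283 ± 0.131% (SD, n = 4) of the Cox6b transcripts. Cox7b2 had 0 counts in all 8 libraries, against a limit of 3 fragments per library (2.61 to 3.93 scaled counts, for counting error only). Ndufa4l2, a gene related to Ndufa4, had at most 6.1 scaled counts.

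Cox7a1 was the exception. This isoform of a complex IV subunit is known from heart and skeletal muscle, and it made up 18.4 ± 2.68% of the Cox7a1 and Cox7a2 transcripts per kb in WT and 18.4 ± 2.05% in Degs2_KO. The share ranged from 14.7% to 20.5% over the 8 libraries. The longest-transcript scale gave 14.8% in both groups. The 5 smooth muscle marker genes summed to 3.95 to 6.47 CPM over the 8 libraries, most of it Tagln, and Acta2, Myh11, Des and Cnn1 were each at or under 0.351 CPM; their part in the Cox7a1 level was not tested. Cox7a2l, which joins complexes III and IV into supercomplexes and exists as a shortened form in C57BL/6 mice, read 114 CPM per kb in each group; gene-level counts do not separate its forms.

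The c-ring of ATP synthase, the proton-driven rotor, is built from 1 mature protein that 3 genes encode with different import sequences. Atp5g3 supplied 61.9 ± 1.93% of the c-ring transcripts per kb in WT and 63.1 ± 0.864% in Degs2_KO. Atp5g2 supplied 26.7 ± 2.40% and 25.4 ± 1.15%, and Atp5g1 supplied 11.4 ± 0.736% and 11.5 ± 0.363%. The order of the 3 genes was the same in every library, since the ranges were 59.2 to 63.9%, 24.0 to 29.7% and 10.8 to 12.4%. On the longest-transcript scale the share of Atp5g1 was about 5.19% in WT and 5.27% in Degs2_KO, with the same order.

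The comparison of Degs2_KO with WT asked whether loss of Degs2 is accompanied by a change in these genes. No member passed the threshold (adjusted p under 0.05, edgeR's quasi-likelihood test over 16132 genes, Benjamini-Hochberg). This count of 0 among the 86 tested members stood beside 0.0% of all tested genes, a background in which Degs2 itself was not called (adjusted p = 0.796). DESeq2 and limma-trend also called 0 members; DESeq2 called 2 genes in the whole table, Degs2 (adjusted p = 6.96e-07) and Dlk1. The log2 fold changes ran from -0.15 for Atp5s, whose name places it with complex V although it is no structural subunit, to 0.17 for Ndufaf4. The fits were precise for these abundant genes, with a median SE of 0.089 against 0.16 over all tested genes. The 95% interval lay within a 1.2-fold change either way for 52 of the 86 members and within 1.5-fold for 85, the exception being the low-level Cox6b2.

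By sign, 71 members were higher and 15 lower in Degs2_KO, with a median log2 fold change of 0.042. Over all tested genes 47.4% were higher and the median was -0.007. The median was 0.035 for complex I (38 higher, 6 lower), 0.020 for complex II (2 and 2), 0.065 for complex III (7 and 1), 0.029 for complex IV (9 and 4) and 0.052 for complex V (15 and 2). The sign count moved with the 2 libraries that stood apart: without Degs2_KO replicate 3 it was 41 of 86 with a median of -0.002, without WT replicate 1 it was 80 of 86 with a median of 0.090, and without both it was 70 of 86 with a median of 0.046.

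**Figure D2:**
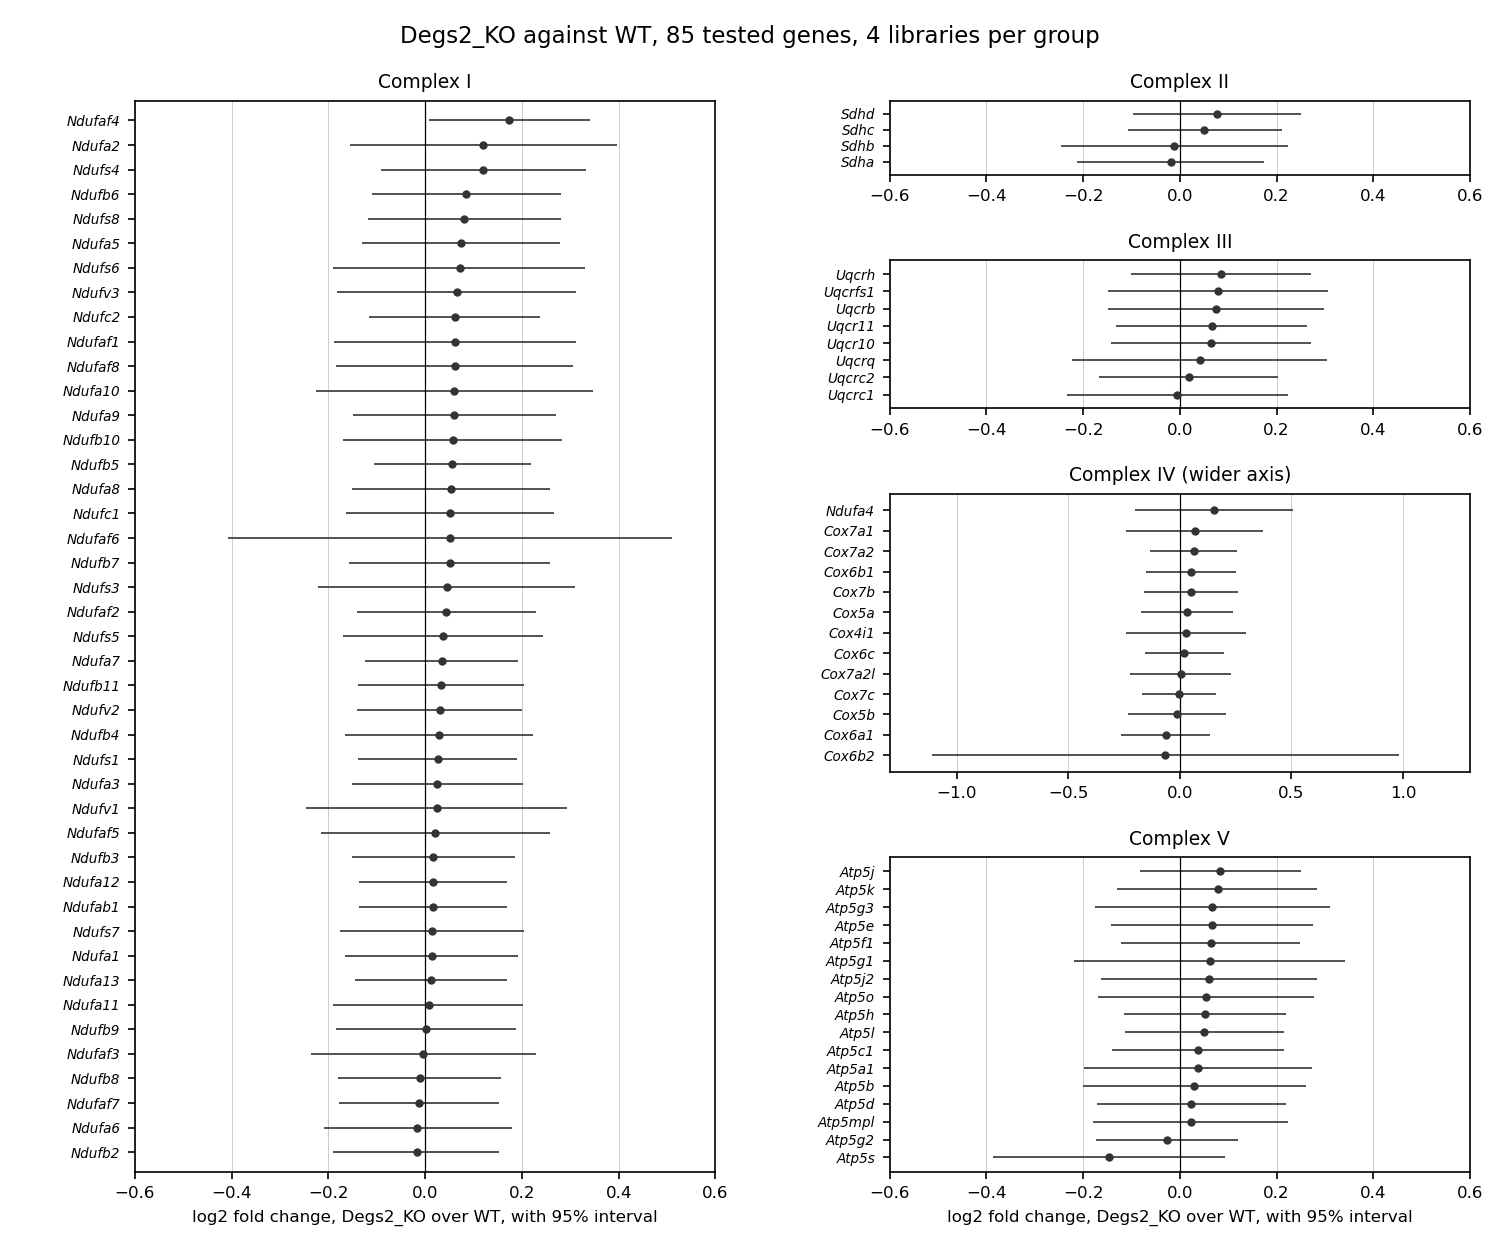
Log2 fold change of Degs2_KO over WT for 85 of the 86 tested members (points) with 95% intervals (bars) from edgeR, 4 libraries per group, by complex, with a wider axis for complex IV. Most points lie just right of 0 (71 of the 86 tested), and the interval excludes 0 for Ndufaf4 alone, without adjustment over genes.

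Ndufaf4, an early assembly factor of complex I, was the member with the smallest p. It read 37.9, 35.9, 32.5 and 33.8 CPM in WT and 38.7, 41.9, 38.4 and 39.1 CPM in Degs2_KO. All 4 Degs2_KO libraries lay above all 4 WT libraries, by a margin of under 1 CPM between Degs2_KO replicate 3 and WT replicate 1. The log2 fold change was 0.17 ± 0.074 (SE), with an adjusted p of 1.0 (0.0427 before adjustment) in edgeR's quasi-likelihood test. It was the 1 member of 86 with an unadjusted p under 0.05 in that direction (0.329% of all tested genes), and the 1 member whose groups did not overlap upward (0.508% of all tested genes). The gene lies at chr4:24898083-24905001 on the plus strand of mm10 (GENCODE M21), and its promoter carries the 10-base NRF1 stretch shown above. GENCODE M21 lists Ndufb1-ps as a non-coding RNA, while RefSeq calls it Ndufb1, a complex I subunit. Set aside for the -ps in its symbol, this gene also had groups that did not overlap. Its values were 31.9, 32.3, 31.2 and 30.9 CPM in WT and 37.7, 32.4, 33.8 and 34.6 CPM in Degs2_KO (log2 fold change 0.13 ± 0.071, unadjusted p = 0.0928).

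Other complex I members with relatively large changes overlapped between the groups. Ndufs4, an accessory subunit of the matrix arm whose loss in mice is a model of Leigh syndrome, read 64.3, 55.1, 52.3 and 59.2 CPM in WT and 63.2, 57.4, 70.7 and 59.5 CPM in Degs2_KO (log2 fold change 0.12 ± 0.093). Its highest value was in Degs2_KO replicate 3 and its second in WT replicate 1. Ndufa2, an accessory subunit of the matrix arm, read 37.7, 30.6, 27.1 and 26.3 CPM in WT and 30.7, 32.3, 36.2 and 32.98 CPM in Degs2_KO (0.12 ± 0.122). Here WT replicate 1 was the highest of all 8 libraries, and the log2 fold change was 0.25 without it (unadjusted p = 0.0326, adjusted p = 0.879). Ndufb2, a membrane-arm subunit and the member of complex I furthest below 0, read 33.6, 30.6, 31.2 and 29.1 CPM in WT and 32.0, 29.1, 32.2 and 29.6 CPM in Degs2_KO (-0.018 ± 0.076). Its exons overlap those of Braf on the other strand, and the sources used here do not say whether the counting used strand.

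The core subunits of complex I carry its flavin, iron-sulfur clusters and quinone site. The 3 of the NADH-oxidizing module were higher, with log2 fold changes of 0.024 to 0.030. Ndufv1, which binds the flavin, read 163, 129.6, 121 and 138 CPM in WT and 133, 134, 166 and 127.5 CPM in Degs2_KO. Ndufs1, the largest iron-sulfur subunit, read 193, 179, 184 and 204 CPM in WT and 195, 182, 202 and 195.5 CPM in Degs2_KO. Ndufv1 thus varied more between libraries than Ndufs1, with its high values in WT replicate 1 and Degs2_KO replicate 3, and neither differed beyond its SE. The 29 accessory subunits split into 26 higher and 3 lower, from -0.018 to 0.12. Ndufa10, a subunit of the membrane arm, showed one of the widest spreads among them, at 184, 148, 138 and 159 CPM in WT and 146 to 159 CPM in 3 Degs2_KO libraries and higher than in any other library in Degs2_KO replicate 3 (0.060 ± 0.13). Of the 8 assembly factors 6 were higher and 2 lower, and Ndufaf4 was the only one of them past an unadjusted p of 0.05.

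The log2 fold changes of the 4 complex II subunits stayed near 0. Sdhd read 232, 214.5, 214 and 211 CPM in WT and 239.9, 211, 245 and 223 CPM in Degs2_KO (log2 fold change 0.077 ± 0.077). Sdha read 506, 486, 458 and 511 CPM in WT and 461, 467, 536 and 471 CPM in Degs2_KO (-0.019 ± 0.085), so 3 of the 4 Degs2_KO libraries were close together and replicate 3 lay well above them. Sdhb read 207, 174, 172 and 197 CPM in WT and 194, 167, 212 and 172 CPM in Degs2_KO (-0.011 ± 0.10). Sdhc, at 165 to 187 CPM in WT and 179 to 193 CPM in Degs2_KO, had a log2 fold change of 0.051 ± 0.070. All 4 intervals lay within a 1.2-fold change.

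In complex III, Uqcrh, the acidic hinge protein that helps cytochrome c to dock, read 268, 239, 250.1 and 253 CPM in WT and 268, 242, 293 and 267 CPM in Degs2_KO (0.085 ± 0.082). Uqcrc1 and Uqcrc2, the large core proteins without a redox centre, had log2 fold changes of -0.005 ± 0.10 and 0.019 ± 0.081. Uqcrfs1 ranged from 203 to 252 CPM in WT and from 217 to 265 CPM in Degs2_KO (0.079 ± 0.10). In all 4 the groups overlapped.

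In complex IV, Ndufa4 had the largest change of the well-expressed members. It read 74.0, 54.4, 55.2 and 67.3 CPM in WT and 63.0, 63.7, 91.2 and 61.3 CPM in Degs2_KO, with a log2 fold change of 0.15 ± 0.16. Degs2_KO replicate 3 was the highest of all 8 libraries, and the other 3 Degs2_KO libraries lay inside the WT range. Cox6a1, by contrast, read 351, 339.7, 320.5 and 397 CPM in WT and 358, 329, 339.7 and 322 CPM in Degs2_KO (-0.063 ± 0.088), with WT replicate 4 highest. Cox7a1 read 14.3, 15.2, 18.3 and 19.0 CPM in WT and 20.8, 17.7, 16.8 and 14.8 CPM in Degs2_KO (0.067 ± 0.14), a spread within each group wider than the difference between them.

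The 10 ubiquitous subunits of complex IV had 7 higher and 3 lower, from -0.063 (Cox6a1) to 0.15 (Ndufa4). Cox4i1 read 466, 372, 375 and 409 CPM in WT and 416, 388, 487 and 364.5 CPM in Degs2_KO (0.029 ± 0.12). Cox5b, which binds zinc on the matrix side, read 351, 299, 291 and 334 CPM in WT and 312, 298, 355 and 298.5 CPM in Degs2_KO (-0.013 ± 0.097). Both had their 2 highest values in Degs2_KO replicate 3 and WT replicate 1. Cox6c and Cox7c, small membrane subunits, varied less, between 201 and 237 CPM and between 198.5 and 231 CPM over the 8 libraries.

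In complex V, Atp5a1 read 1663, 1476, 1420 and 1545 CPM in WT and 1514, 1489, 1755 and 1507 CPM in Degs2_KO (0.037 ± 0.10). Atp5b read 1772, 1652, 1506 and 1715 CPM in WT and 1668, 1614, 1860 and 1643 CPM in Degs2_KO (0.030 ± 0.10). For both, the highest library was Degs2_KO replicate 3 and the second WT replicate 1. Atp5j, which encodes coupling factor 6 of the stalk, read 161, 146.5, 144 and 152 CPM in WT and 159, 149.7, 173 and 159 CPM in Degs2_KO (0.084 ± 0.073), and overlaps exons of Gabpa on the opposite strand. Of the c-ring genes, Atp5g1 read 172, 128, 122 and 131.5 CPM in WT and 138, 136, 165.5 and 138 CPM in Degs2_KO (0.062 ± 0.12), while Atp5g2 read 113, 111, 111 and 104 CPM in WT and 112, 105, 113 and 102.5 CPM in Degs2_KO (-0.027 ± 0.065). Atp5s read 9.26, 9.33, 10.9 and 10.5 CPM in WT and 9.80, 8.12, 9.13 and 9.08 CPM in Degs2_KO (-0.15 ± 0.11, unadjusted p = 0.201). It had the most negative change of all members and its groups overlapped. The 5 F1 subunits were all higher in Degs2_KO by 0.024 to 0.067, the 4 tested stalk subunits by 0.052 to 0.084 and the 4 accessory membrane subunits by 0.023 to 0.078, each less than its own SE except Atp5j. Atp5o, the stalk protein through which oligomycin sensitivity is conferred, read 289, 238, 249 and 258.5 CPM in WT and 268, 252, 306 and 247 CPM in Degs2_KO (0.054 ± 0.098).

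**Figure D3:**
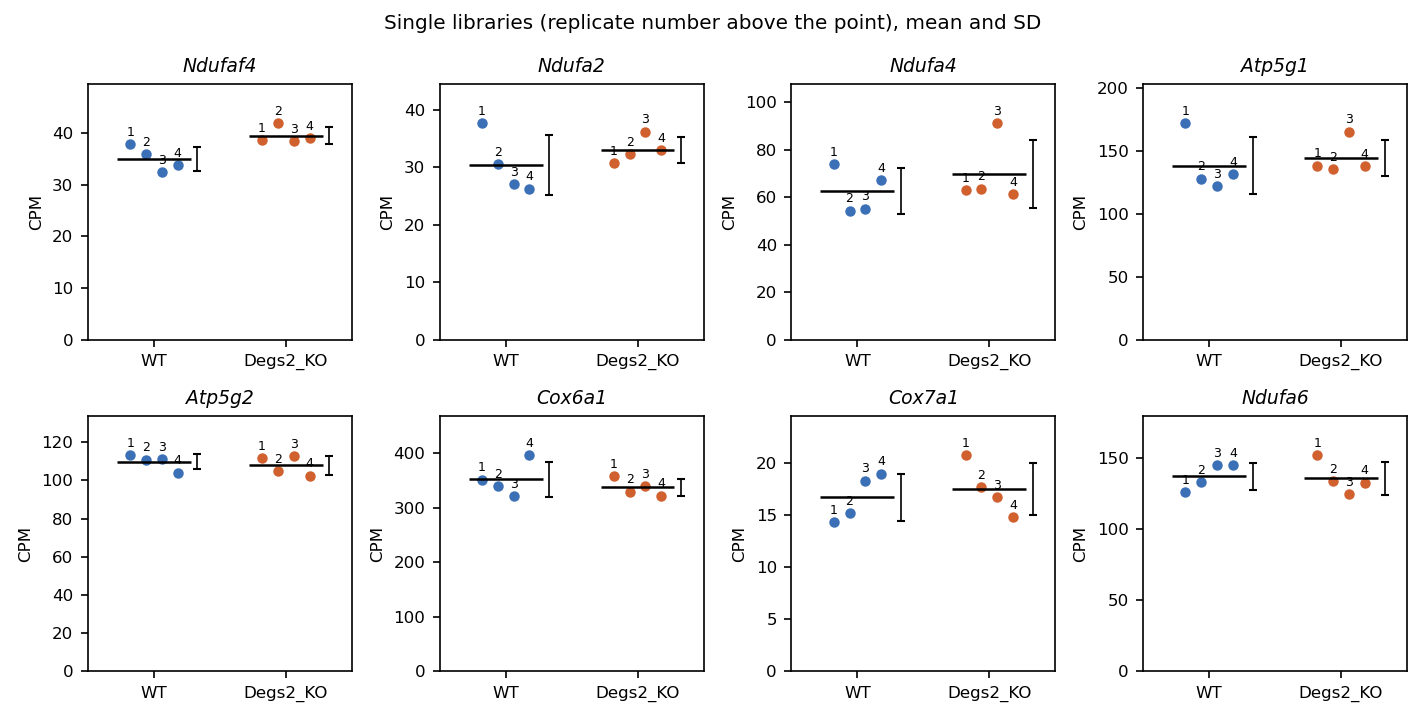
CPM in each library (points, with the replicate number above) for 8 members, with the group mean (line) and SD (bar); the vertical axes start at 0. Of the 8, Ndufaf4 alone has groups that do not overlap; WT replicate 1 and Degs2_KO replicate 3 are the high points of their groups for Ndufa2, Ndufa4 and Atp5g1, and not for Cox7a1 or Ndufa6.

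The spread between libraries exceeded the difference between genotypes, and it was shared by members of all 5 complexes. Summed over the 18 members of complex V, the level was 6393, 5703, 5497 and 5968 CPM in WT and 6004, 5738, 6666 and 5834 CPM in Degs2_KO. Complex I summed to 3448, 3068, 3060 and 3227 CPM in WT and 3281, 3102, 3545 and 3175 CPM in Degs2_KO. Complex III summed to 1768, 1554, 1533 and 1667 CPM in WT and 1666, 1582, 1864 and 1626 CPM in Degs2_KO. In each of the 5 complexes the highest sum was in Degs2_KO replicate 3 and the second highest in WT replicate 1, the libraries that also stood apart over all genes. All members together made up 1.44% of the summed CPM in WT and 1.47% in Degs2_KO (14350 ± 883 and 14690 ± 983 CPM, SD, n = 4). This total leaves out genes with a failed status, among them 4 subunits encoded by mitochondrial DNA, so it is not a share of all fragments.

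Gene by gene, these 2 libraries were the 2 highest of the 8 for 50 of the 86 members (58.1%), and for 17.8% of all tested genes. The genes were counted after the libraries were seen to stand apart, so these shares are a description. The count was 26 of 44 for complex I, 1 of 4 for complex II, 5 of 8 for complex III, 7 of 13 for complex IV and 11 of 17 for complex V. Among the 8 assembly factors of complex I it was 2. Restricting both sets to at least 10 CPM gave 59.3% of members and 18.9% of tested genes. By sums, the pattern was not confined to the members. The 20 genes listed for glycolysis below summed to 7677 and 7663 CPM in these 2 libraries, against 6207 to 7259 CPM in the others. Sums of the TCA cycle list and of the ADP/ATP and phosphate carrier list were highest in Degs2_KO replicate 3 and second in WT replicate 4. WT replicate 1 and Degs2_KO replicate 3 had the lowest distal colon Hox levels, given above. Their sums over 10 heat shock and early response genes were also lowest (1117 and 1204 CPM, against 2564 to 4053 CPM in the others). Early response genes such as Fos and Jun carried this difference. The heat shock genes Hspa1a, Hspa1b and Dnajb1 were instead lowest in WT replicate 4, at 5.94, 19.9 and 59.5 CPM. Sums over 8 proximal gut genes peaked in the 2 libraries that stood apart, at 375 and 451 CPM against 86.6 to 229 CPM. Most of this was Fabp2, at 354 CPM in WT replicate 1 and 435.5 CPM in Degs2_KO replicate 3. Sis was also highest there (13.9 and 6.38 CPM), but Cyp27a1 was lowest there (5.62 and 7.44 CPM). Gata4 was highest in WT replicate 4 (1.705 CPM), and only 4 of the 8 genes had enough counts to be tested. T cell sums were likewise highest in these 2 libraries, at 36.2 and 29.3 CPM against 8.88 to 23.4 CPM. The part of these in the members' levels was not tested.

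**Figure D4:**
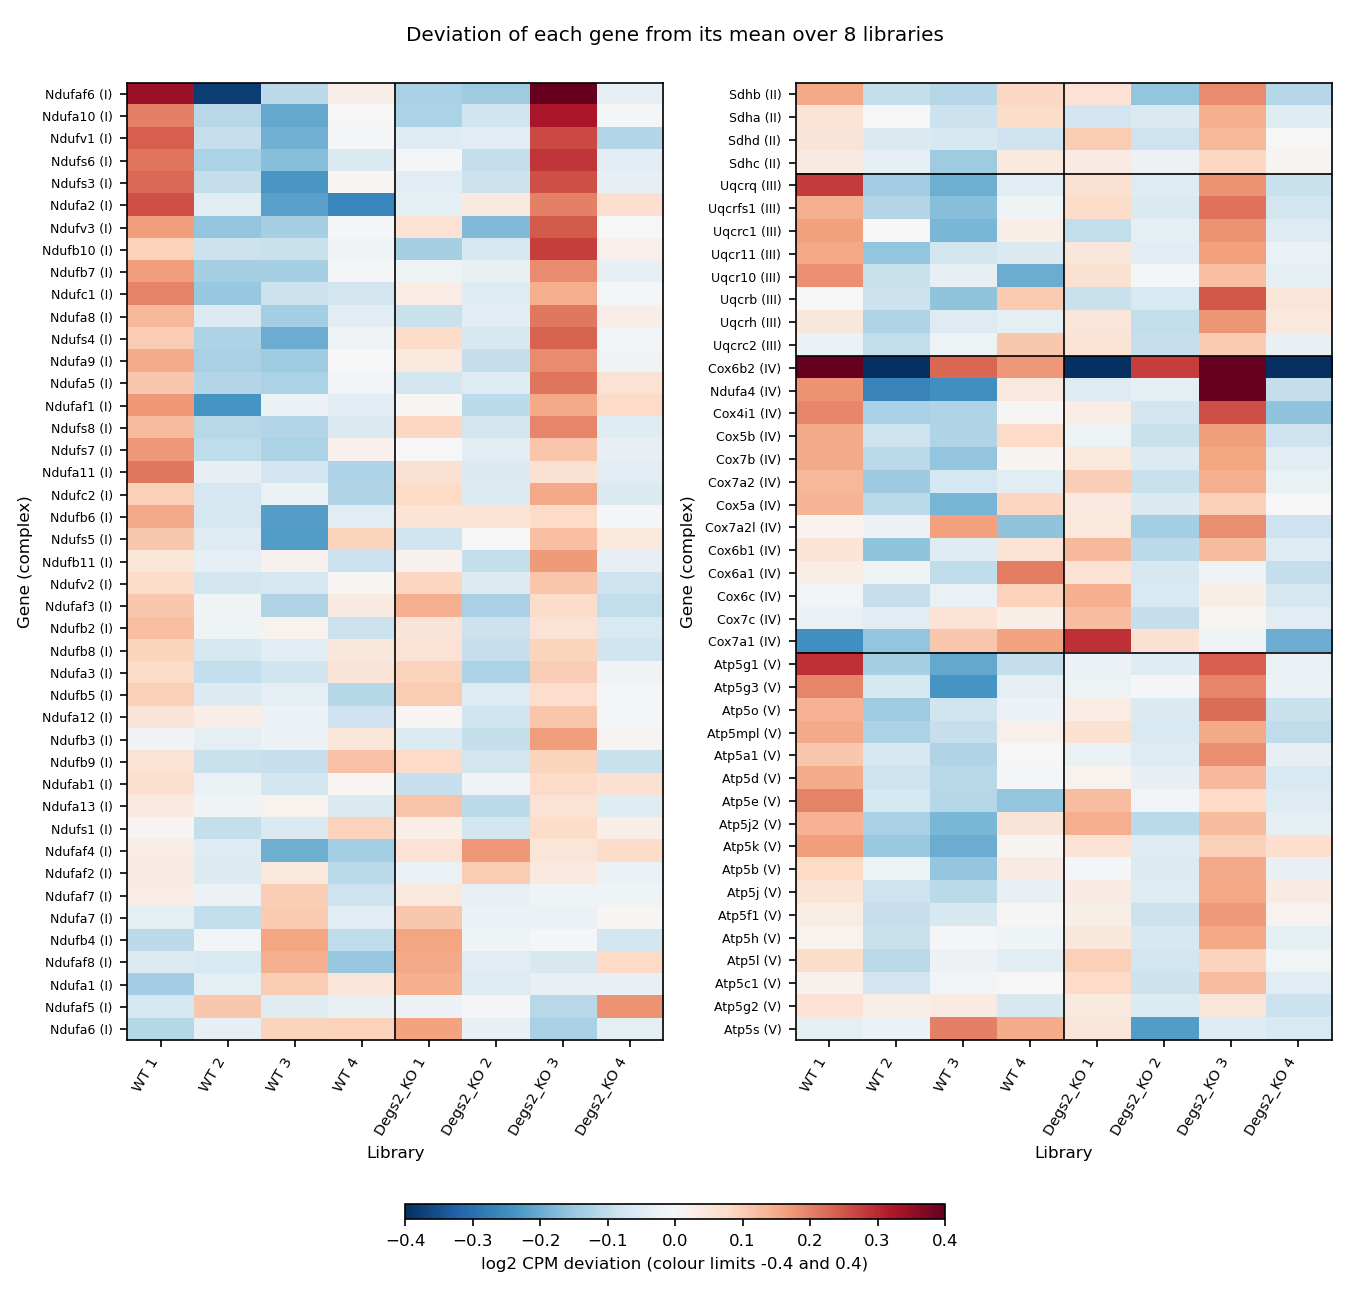
Deviation of each of 85 of the 86 tested members (rows, by complex) from its own mean over the 8 libraries (columns), in log2 CPM, with red above and blue below the mean; within a complex, rows are ordered by the sum of the WT replicate 1 and Degs2_KO replicate 3 values. These 2 columns are red for most rows and hold the 2 highest values for 50 of the 86 tested members, while rows at the foot of the complex I block, such as Ndufa1 and Ndufa6, do not share the pattern.

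A minority of members did not follow those 2 libraries. In 13 members WT replicate 1 was not the highest WT library and Degs2_KO replicate 3 was not the highest Degs2_KO library: Atp5s, Cox6a1, Cox6c, Cox7a1, Cox7c, Ndufa1, Ndufa6, Ndufa7, Ndufaf2, Ndufaf5, Ndufaf7, Ndufaf8 and Ndufb4. Ndufa6, a matrix-arm subunit of complex I, read 126, 133, 145 and 145 CPM in WT and 152, 134, 125 and 133 CPM in Degs2_KO, so its lowest values were in the 2 libraries that were highest for most members. Across all 8 libraries the log2 SD was lowest for Ndufaf7 (0.055), a methyltransferase of complex I assembly, and for Atp5g2 (0.058). It was highest for Cox6b2 (0.69), Ndufaf6 (0.26), Ndufa4 (0.24) and Cox7a1 (0.19), of which Cox6b2 and Ndufaf6 have low counts. The median over members was 0.11, against 0.22 over all tested genes.

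Sign counts were also taken by promoter letters, as a description of small groups. Of the 12 members with the NRF1 core, 7 were higher and 5 lower in Degs2_KO, with a median log2 fold change of 0.014 (range -0.063 to 0.17), and 6 had their 2 highest values in WT replicate 1 and Degs2_KO replicate 3. Of the 61 tested members with a matched promoter and no such core, 52 were higher and 9 lower, with a median of 0.050. Of the 11 members with the YY1 core, 10 were higher, with a median of 0.060. The difference between these groups was not tested.

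Of the 13 subunits encoded by mitochondrial DNA, the 9 tested had their high and low values mostly in other libraries than most nuclear members. The authors' quantification failed for 4 of the 13 (mt-Co1, mt-Co3, mt-Atp6 and mt-Atp8). The 9 others had log2 fold changes from -0.14 to 0.041, with 0 called and 0 with an unadjusted p under 0.05. mt-Cytb, the cytochrome b of complex III, read 7618, 10090, 11020 and 13850 CPM in WT and 12600, 9583, 8191 and 10070 CPM in Degs2_KO. WT replicate 1 was lowest of all 8 libraries for 6 of the 9 genes, WT replicate 4 was highest for 8 of 9, and Degs2_KO replicate 1 was the highest of its group for 9 of 9. Degs2_KO replicate 3 was the lowest of its group for only 5 of 9. In 0 of the 9 were WT replicate 1 and Degs2_KO replicate 3 the 2 highest libraries. The median deviation of the 9 genes was -0.35 in WT replicate 1 and -0.19 in Degs2_KO replicate 3, whereas that of each nuclear complex was above 0 in both.

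**Figure D5:**
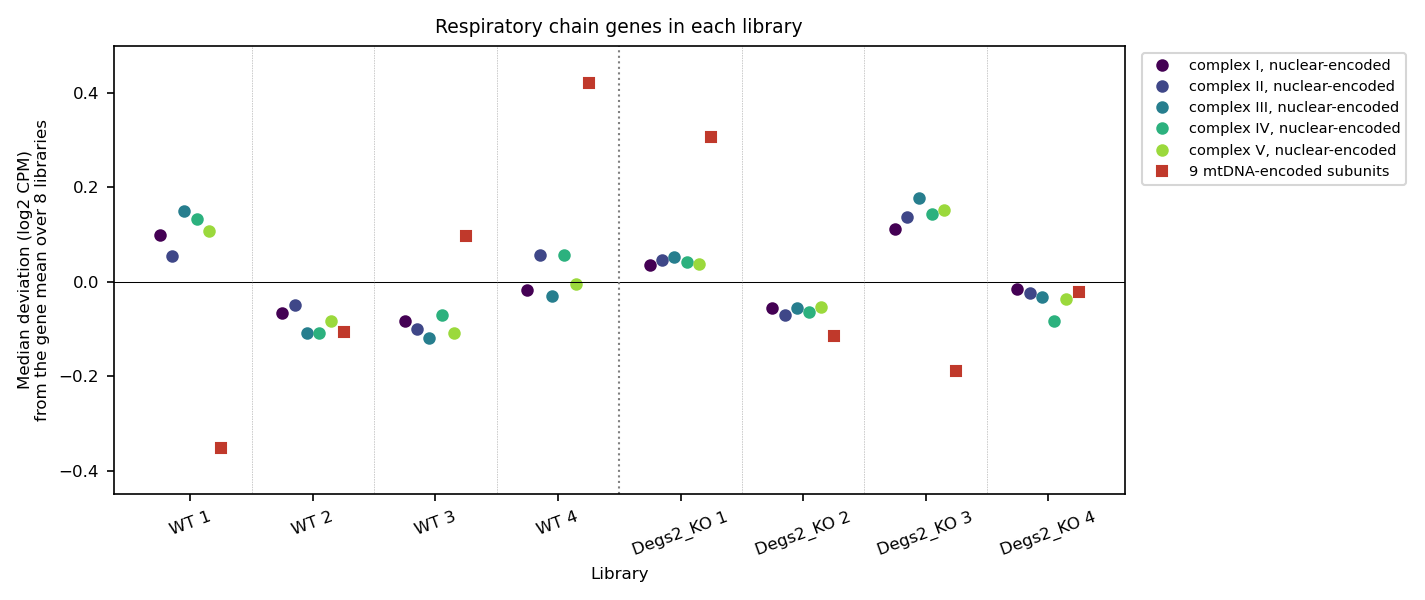
Median deviation of the members of each complex (circles) and of the 9 tested mtDNA-encoded subunits (squares) from the gene means over 8 libraries, in log2 CPM, for each library. The circles of the 5 complexes sit together and above 0 in WT replicate 1 and Degs2_KO replicate 3, where the squares lie at -0.35 and -0.19.

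Genes that work with the chain were read from fixed lists, and 0 genes of any of these lists passed the threshold in either direction. Among subunits and carriers that the symbol rule misses, such as Cyc1 (cytochrome c1), Cycs (cytochrome c) and Cox8a, 7 of 9 tested genes were higher, with a median log2 fold change of 0.048. Cycs read 219, 195, 174 and 217 CPM in WT and 213, 193, 247.5 and 211 CPM in Degs2_KO (0.10 ± 0.11), with Degs2_KO replicate 3 highest and WT replicate 1 second. Of 46 tested assembly factors outside the rule, 32 were higher and 14 lower (median 0.038). Of 18 genes listed for the TCA cycle, which supplies NADH and succinate, 14 were higher and 4 lower (0.032). That list included the pyruvate dehydrogenase genes Pdha1, Pdhb, Dlat and Pdhx. Of 20 genes listed for glycolysis 14 were higher and 6 lower (0.045). These included Slc2a1 and Pdk1 to Pdk4, which do not encode glycolytic enzymes. For the enzymes of coenzyme Q synthesis the split was 7 and 6 (0.013), and for the ADP/ATP, phosphate and porin carriers 6 and 1 (0.050).

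Of the 17 tested regulators of mitochondrial genes, 9 were higher and 8 lower, with a median of 0.001. Tfam, which packages and transcribes mitochondrial DNA, had the smallest p of this list and read 42.6, 36.1, 36.2 and 33.9 CPM in WT and 41.2, 40.0, 47.4 and 39.9 CPM in Degs2_KO (log2 fold change 0.18 ± 0.095, unadjusted p = 0.0915). Ppargc1a, the coactivator known for driving mitochondrial biogenesis, read 65.3, 97.1, 121 and 102 CPM in WT and 102, 78.0, 49.3 and 82.4 CPM in Degs2_KO (-0.31 ± 0.24). Its 2 lowest libraries were Degs2_KO replicate 3 and WT replicate 1, the 2 in which most members were highest. Nrf1, which encodes the factor whose core is printed above, stayed between 26.4 and 31.1 CPM in all 8 libraries (0.077 ± 0.074).

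Overlaps and copies bear on single values. Exons of 33 members overlap those of another gene, and for 14 of them the other gene reaches at least 10% of the member's CPM. Examples are Ndufb11 with Rbm10 (117 shared bases) and Cox6c with Vps13b (250). Some of these overlaps are short, such as 9 bases for Ndufs1 with Eef1b2. The 14 also include Cox6a2, Ndufa4l2 and the second Ensembl ID of Atp5o, whose own levels were 0.0305 to 0.0605 CPM. Many members also have processed pseudogene copies, and the sources used here do not say how reads matching several places were handled.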

How the data were processed

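RNA-seq of colonic epithelial cells was measured in 8 libraries, 4 WT and 4 Degs2_KO, grouped by the sample titles. The deposited values are estimated counts per gene, per the file headers; they carry a scaling between libraries, as steps of 0.871 to 1.31 between low values show. Per the submitters' processing notes, cutadapt 1.9, TopHat2 2.0.10, Cufflinks 2.1.1 with Cuffdiff and the mm10 build were used; the sources used here do not name the strand setting. A further 24 columns of per-sample values in the table were not used. Scaled totals ranged from 41622927 to 44606092 and unscaled totals from 32.83 to 49.82 M fragments.

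Ensembl IDs were paired with symbols from GENCODE M21 (54074 of 54141). Counts were rounded, 47 genes with a failed status in any library were left out, and genes passing filterByExpr (minimum count 10, minimum total 15) were fitted with edgeR 4.0.16 (R 4.3.3) using TMM factors and the quasi-likelihood F test, 2-sided, with Benjamini-Hochberg adjustment over 16132 genes at 0.05. CPM are on the TMM scale. Of the 91 members 86 were tested; Cox4i2, Cox6a2, Cox7b2, Ndufa4l2 and a second Ensembl ID for Atp5o had too few counts. Alternatives were DESeq2 1.42.0, limma 3.58.1 (limma-trend), other scalings and filters, blocks and left-out libraries. The edgeR procedure was tested on simulated data. The intervals of the fold changes come from the edgeR fit and include the scatter between libraries. Floors cover counting error only.

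Genes were named by a rule: all subunits of complexes with at most 4 members, the 3 highest and lowest per complex per kb, the 5 smallest p in each direction, the 5 largest changes, non-overlapping members and isoform sets. Ndufa6, Ndufaf7, Atp5e, Uqcrfs1, Ppargc1a, Nrf1, Ndufb1-ps, and members named in counts or for their promoters were chosen after their values were seen. So were Ndufv1, Ndufs1, Ndufa10, Cox5b and Atp5o, which the rule does not name. 1 tested member enters all counts and medians but is not reported here by name or drawn. The members and gene lists were chosen with earlier results of these data known. Promoters are RefSeq's (GRCm38.p6), and 65 of 74 had their bases after the start inside an annotated transcript of the gene.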

Additional observations from a re-analysis of the deposited data

Results flagged for a closer look

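In groups of 4 libraries, a value was singled out when its gap to the nearest other library relative to the group's range exceeded Dixon's 95% critical value, which chance gives in about 1 in 20 groups. This held for 10 of 96 groups examined (43 members and 5 complex sums in each genotype). In 6 of the 10 Degs2_KO replicate 3 was the high library: Atp5a1 at 1755 CPM (others 1489 to 1514), Sdha at 536.3 CPM (461 to 471), Atp5g3 at 390.0 CPM (335 to 339), Atp5g1 at 165.5 CPM (136 to 138), Ndufa4 at 91.18 CPM (61.3 to 63.7) and Ndufaf6 at 5.361 CPM (3.62 to 3.90). Sdhd stood out in WT replicate 1 at 231.8 CPM (211 to 214.5), and Ndufa1 in Degs2_KO replicate 1 at 87.67 CPM (76.7 to 77.8). The last 2 rest on a few counts: Cox4i2 was 0.0 CPM in Degs2_KO replicate 3 (others 0.0229 to 0.0231), and the second Ensembl ID of Atp5o was 0.1102 CPM in WT replicate 3 with 0 in the other WT libraries.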

How the results depend on the processing

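No member was called under any alternative run, nor was any gene of the listed pathways. Over the whole table the count was 0 except with DESeq2, which called 2. At an unadjusted p under 0.05 the count of members was 1. The number of members higher in Degs2_KO ranged from 41 to 80 when 1 library was left out, and the median over all members from -0.002 to 0.090; across scalings, filters, tools and blocks the number ranged from 68 to 78. Of 237 recomputed summary values, 234 stayed within the spread between libraries or within 1.5 times the count. The spread for the median over all members, 0.089, is larger than that median, 0.042, so a median that fell to 0 also counted as within it. The 234 therefore do not show that the medians are stable. Of 683 fold changes of 38 tested named members 680 moved by less than 1 SE. Atp5g1, Ndufa2 and Uqcrq moved further (0.19, 0.25 and 0.16) without WT replicate 1. Up to 11 of the 38 changed sign, without Degs2_KO replicate 3. A fit with a replicate block gave 71 higher and a median of 0.045, with 0 called. Deviations of same-numbered libraries had correlations of -0.425, 0.444, -0.56 and -0.102. WT replicate 1 and Degs2_KO replicate 3, which stood apart, correlated at 0.75 and weigh on these values, so the correlations cannot decide whether samples were paired. Some WT and Degs2_KO libraries have adjoining ID numbers. A block on these numbers, without the libraries that lack such a neighbour, changed the sign of 7 of the 38 named members. The log2 fold change of Ndufaf4 ranged from 0.13 to 0.23. With 4 libraries a group and SEs near 0.089, changes under about 1.2-fold could not be resolved for most members, even before adjustment over genes. After adjustment, larger changes could also go uncalled. Degs2, at a log2 fold change of -1.07, had an adjusted p of 0.796 in edgeR's quasi-likelihood test. Where a value moved, the cause was not tested.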
